A study of Homo sapiens with 20 samples.

Results

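The mRNA levels of 9 genes that drive cells from G1 into S phase were described in U2-OS cells, a human osteosarcoma line that grows continuously in culture. The genes were the D cyclins CCND1, CCND2 and CCND3, the E cyclins CCNE1 and CCNE2, the cyclin-dependent kinases (CDKs) CDK2, CDK4 and CDK6, and the phosphatase gene CDC25A. They were found by symbol among the 20314 genes of the count table, and all 9 passed the filter on low counts. RNA-seq libraries came from 4 groups of 5, all grown in the same serum-containing medium. Cells were left untreated, harvested 1.5 h or 7 days after ionizing radiation (IR) of 20 Gy, or given an shRNA but no IR. The shRNA targets NFKBIA, which encodes the NF-κB inhibitor IκBα. The label of the first IR group gives its time as 90 minutes. The comparisons address the early response to DNA damage, the later senescent state, and the loss of IκBα without damage. According to the methods, shRNAs were delivered by lentiviral vectors with puromycin selection of clones, the knockdown was induced by doxycycline, and cells with an inducible scrambled shRNA and doxycycline served as controls. The labels do not say that the untreated libraries came from such cells. Where they did not, the shRNA against NFKBIA, the vector, the selection and doxycycline cannot be told apart. The labels give no time in culture for the untreated libraries. Where these were not kept for the same 7 days, IR and time in culture cannot be told apart in the 7-day group.

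D cyclins are made in response to growth signals and bind CDK4 and CDK6, which phosphorylate the retinoblastoma protein RB in G1. Phosphorylated RB releases E2F transcription factors, whose targets include the genes of the E cyclins, of CDC25A and of the DNA replication machinery. E cyclins bind CDK2 and carry cells into S phase. CDC25A removes inhibitory phosphates from CDKs, while the inhibitor p21, encoded by CDKN1A, holds CDK2 complexes inactive after DNA damage. Much of the control over these proteins acts on their stability and phosphorylation, which RNA-seq does not measure.

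The libraries held 22535659 to 40390961 counted reads, and the 9 genes had 299 to 24910 reads in any library. Untreated replicate 5 stood apart. It had the fewest reads and a mean correlation of 0.977 with the other untreated libraries, against 0.985 to 0.991 for the other untreated libraries and 0.995 to 0.997 for those of the other groups. It was also the single untreated library in lane 3, where 3 libraries at 1.5 h were read, while untreated replicates 1 to 4 were in lane 2. The lane is read here from the lane suffix of the sample descriptions. NFKBIA was at 31.3 ± 7.24 CPM (counts scaled to library size, mean ± SD, n = 5) in untreated cells and at 12.15 ± 0.667 CPM in the knockdown, a log2 fold change of -1.36 ± 0.11 (SE, adjusted p = 4.87e-09). Of 8 osteosarcoma and mesenchymal markers, RUNX2, VIM, SPARC, COL1A1, ALPL and CDH2 were present in every library, COL1A2 did not exceed 0.595 CPM and TWIST1 was at 0 to 0.0288 CPM. Of 12 markers of epithelial, blood and endothelial cells, 11 were in the table. They summed to 16.9 to 23.4 CPM in untreated cells, 17.4 to 21.5 CPM at 1.5 h, 13.4 to 15.9 CPM at 7 days and 30.1 to 34.5 CPM in the knockdown. CLDN4 was the highest of them with 6.57 to 29.2 CPM.

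At 7 days post-IR, CCND1 and CCND2 rose to nearly double their untreated levels, while the third D cyclin gene, CCND3, did not pass the test. CCND1, the D cyclin with the highest level per length in these cells, was at 356, 353, 360.5, 314 and 356 CPM in untreated replicates 1 to 5. At 7 days post-IR it was at 729, 664, 671, 669 and 695 CPM. Each library at 7 days lay far above each untreated library, and the fold change was 1.97 (log2 0.98 ± 0.05 SE, adjusted p = 1.86e-13 by edgeR's quasi-likelihood test). CCND2 was at 204, 265, 232, 236 and 182.5 CPM in untreated cells and at 424, 383, 434, 379.6 and 373.5 CPM at 7 days. Again no library overlapped between the groups, and the fold change was 1.78 (log2 0.83 ± 0.08, adjusted p = 1.95e-08). Genes were called higher or lower with an adjusted p under 0.05 and a log2 fold change over 0.5 in size. At 7 days 2 of the 9 genes were called, both higher, where 31.1% of all 14992 genes tested were called (16.7% higher and 14.4% lower), so the share of called genes here is not above that of all genes. No overlap between these groups was seen for 44.8% of all genes. Cell type markers moved as well at 7 days, with KRT19 (1.82) and ALPL (0.77) called higher and EPCAM (-0.86), CLDN4 (-0.76), CDH1 (-0.72) and SPARC (-0.75) lower. KRT19 did not exceed 0.824 CPM in any library. At 1.5 h RUNX2 was called lower (-0.56), at 78.45 ± 8.05 CPM (SD) against a widely spread 116 ± 51.5 CPM in untreated cells. The part of these markers in the values of the cyclins and CDKs was not tested.

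CCND3 was at 81.8, 66.9, 74.5, 84.5 and 112 CPM in untreated cells and at 90.7, 94.6, 87.7, 93.9 and 93.3 CPM at 7 days. The 7-day values lay within the wide untreated range, which reached its maximum in replicate 5, with a log2 fold change of 0.14 ± 0.09 (adjusted p = 0.219). Without that library it was 0.24 ± 0.07 (adjusted p = 0.00277), under the fold threshold. The sign turned when lane was a factor, to -0.33 ± 0.16 (adjusted p = 0.0842). At 1.5 h the D cyclins gave no calls when lane was left out of the model. CCND1 was at 373, 372, 337, 361 and 384 CPM and CCND2 at 188, 215, 244, 219.5 and 199.8 CPM, both overlapping the untreated libraries, with log2 fold changes of 0.07 (95% interval -0.02 to 0.16) and -0.07 (-0.23 to 0.09). CCND3 was at 77.2, 65.7, 60.6, 70.7 and 70.6 CPM at 1.5 h, a log2 fold change of -0.28 ± 0.09 (adjusted p = 0.0397), and of -0.16 ± 0.07 (adjusted p = 0.0599) without untreated replicate 5. In the fit with lane, which rests on that replicate, CCND3 was called lower at -0.72 ± 0.12 (adjusted p = 6.47e-05).

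**Figure D1:**
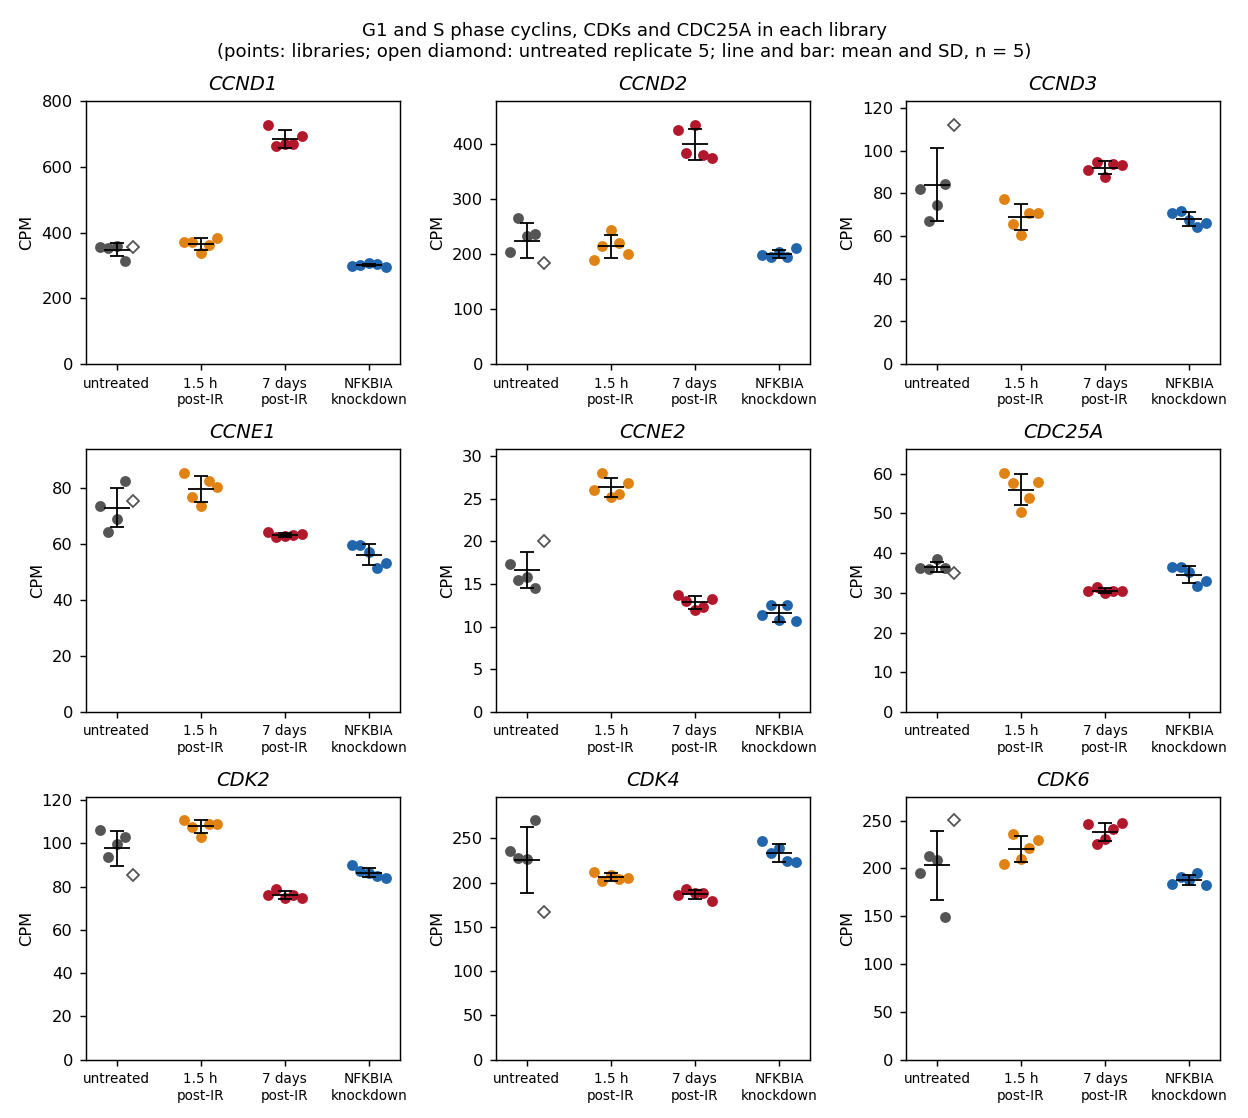
CPM of the 9 genes in each library, by group. Points stand for libraries, the open diamond for untreated replicate 5, and horizontal lines and bars for the mean and SD of 5 libraries. CCND1 and CCND2 lie apart from all other groups at 7 days, CCNE2 and CDC25A at 1.5 h, and the untreated libraries of CCND3, CDK4 and CDK6 are the most widely spread.

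At 1.5 h post-IR, CCNE2 and CDC25A rose, and none of the D cyclin or CDK genes passed both thresholds. CCNE2, which encodes the less abundant E cyclin mRNA in these cells, was at 17.3, 15.4, 15.8, 14.6 and 20.03 CPM in untreated cells and at 26.04, 28.04, 25.2, 25.6 and 26.8 CPM at 1.5 h. All libraries at 1.5 h exceeded the highest untreated library, replicate 5, with a fold change of 1.59 (log2 0.67 ± 0.07, adjusted p = 1.21e-06). CDC25A was at 36.2, 36.1, 38.5, 36.3 and 35.1 CPM in untreated cells and at 60.3, 57.6, 50.4, 53.96 and 57.9 CPM at 1.5 h. The untreated values were tightly grouped, none overlapped those after IR, and the fold change was 1.54 (log2 0.62 ± 0.05, adjusted p = 1.97e-08). These 2 of 9 genes compare with 3.66% of all genes called at 1.5 h, 2.08% higher, and with 12.3% without overlap in either direction. With lane as a factor 25.5% of all genes were called at 1.5 h. The call of CCNE2 was lost in the fits by lane, which rest on untreated replicate 5. With lane as a factor its log2 fold change was 0.40 ± 0.11 (adjusted p = 0.00859), and within lane 3, where untreated replicate 5 stood alone against 3 libraries and is assumed to vary like them, it was 0.39, while without that replicate it was 0.73 ± 0.06 (adjusted p = 8.50e-09). CDC25A had 0.68 ± 0.10 (adjusted p = 2.24e-05) with lane as a factor and 0.67 within lane 3, values that rest on the same library, and 0.60 ± 0.05 (adjusted p = 1.54e-08) without it.

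CCNE1, which encodes the major E cyclin mRNA here, was at 73.6, 64.2, 68.8, 82.5 and 75.2 CPM in untreated cells and at 85.3, 76.7, 73.6, 82.2 and 80.4 CPM at 1.5 h. These values overlapped, with a log2 fold change of 0.13 (95% interval 0.01 to 0.25, adjusted p = 0.136). The 2 E cyclin genes therefore stood on different sides of the threshold, although the difference between them was not tested. At 7 days both E cyclin genes and CDC25A lay below untreated cells in all libraries, by less than the fold threshold. CCNE1 was at 64.2, 62.5, 62.7, 63.2 and 63.4 CPM (log2 fold change -0.20 ± 0.06, adjusted p = 0.00563), within a span narrower than in any other group. CCNE2 was at 13.7, 12.98, 11.9, 12.3 and 13.2 CPM (-0.37 ± 0.08, adjusted p = 2.51e-04), and with lane as a factor it passed both thresholds at -0.57 ± 0.15 (adjusted p = 0.0037). CDC25A was at 30.4, 31.5, 29.8, 30.3 and 30.4 CPM (-0.26 ± 0.05, adjusted p = 2.03e-04). All 3 therefore passed the test on p alone, as did 64.2% of all genes at 7 days. With lane as a factor CCNE1 (-0.30 ± 0.15, adjusted p = 0.0956) and CDC25A (-0.18 ± 0.12, adjusted p = 0.252) no longer passed it. In bulk RNA, fewer cells in a phase of the cycle and less of an mRNA per cell cannot be told apart.

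The upstream sequences of CDC25A and CCNE1 are shown because both encode known E2F-regulated activators of CDK2, with CDC25A called at 1.5 h and CCNE1 not. They are the 150 bases before the transcription start in RefSeq (GRCh38.p14), at chr3:48188418-48188567 on the minus strand and chr19:29811841-29811990 on the plus strand, written 5′ to 3′ with capitals for E2F octamers and GC boxes.
CDC25A: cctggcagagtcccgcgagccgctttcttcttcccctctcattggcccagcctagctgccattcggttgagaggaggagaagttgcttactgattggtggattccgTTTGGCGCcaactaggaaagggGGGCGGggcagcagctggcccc
CCNE1: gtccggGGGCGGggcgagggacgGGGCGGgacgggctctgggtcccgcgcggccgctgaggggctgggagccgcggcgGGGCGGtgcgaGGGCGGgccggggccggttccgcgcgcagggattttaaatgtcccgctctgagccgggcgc
CDC25A held 1 E2F octamer, starting 44 bases before the transcription start, and 1 GC box in this stretch. CCNE1 held 4 GC boxes and no E2F octamer. The E2F octamers searched on both strands were TTTCCCGC, TTTCGCGC, TTTGCCGC and TTTGGCGC, found in 3.31% of 35116 promoters of 300 bases, and the GC box was GGGCGG, found in 45.0%. Of the 9 genes, 5 had promoters in the table (CCND3, CCNE1, CDC25A, CDK4 and CDK6, with 8 promoters in all). An E2F octamer was found in that of CDC25A alone, and neither the AP-1 motif TGANTCA (7.71% of all promoters) nor the cAMP response element TGACGTCA (1.85%) was found in any of the 8. A match of letters is a description and not a measured binding site.

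No CDK gene was called against untreated cells in any group when lane was left out of the model. CDK2, the partner of the E cyclins, was at 106, 93.8, 99.7, 103 and 85.5 CPM in untreated cells and at 76.2, 78.7, 74.6, 76.1 and 74.7 CPM at 7 days. All libraries at 7 days lay below all untreated libraries, with a log2 fold change of -0.36 ± 0.05 (adjusted p = 1.63e-06), under the fold threshold. The value was smaller with lane as a factor, at -0.17 ± 0.09 (adjusted p = 0.118). At 1.5 h CDK2 was at 110.5, 107.5, 103, 109 and 109 CPM, overlapping the untreated range, with 0.14 ± 0.05 (adjusted p = 0.0422), with 0.09 ± 0.04 (adjusted p = 0.0616) without untreated replicate 5, and with 0.32 ± 0.07 (adjusted p = 9.30e-04) with lane as a factor.

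CDK4 and CDK6, the partners of the D cyclins, varied widely between untreated libraries and in opposite directions. CDK4 was at 236, 228, 227, 270.1 and 166 CPM in untreated replicates 1 to 5, and CDK6 was at 195, 213, 208.5, 149 and 250.1 CPM. Replicate 4 was highest in CDK4 and lowest in CDK6, and replicate 5 the reverse. Over the 20 libraries the log2 CPM of these genes correlated with r = -0.925, and with r = -0.858 after the group means were removed, as a description of libraries that share groups and lanes. Gene length moved with this split. Among the untreated libraries, replicate 4 had the 2733 tested genes over 8000 bases at a median log2 deviation of -0.24 from the group mean and the 1648 genes under 2000 bases at 0.24, while replicate 5 had them at 0.14 and -0.09. CDK6 is the longest of the 9 genes at 12260 bases in the file, against 3168 bases for CDK4, and the part of length in these levels was not tested.

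At 7 days CDK4 was at 186, 192, 188, 188 and 179 CPM and CDK6 at 247, 226, 231, 241 and 247 CPM, both with far less spread than in untreated cells. CDK4 had a log2 fold change of -0.27 ± 0.08 (adjusted p = 0.00502) and CDK6 of 0.23 ± 0.09 (adjusted p = 0.0252) against untreated cells. Both signs turned with lane as a factor, to 0.20 ± 0.11 for CDK4 (adjusted p = 0.132) and -0.14 ± 0.18 for CDK6 (adjusted p = 0.534). At 1.5 h CDK4 was at 212, 202, 208, 203.5 and 206 CPM and CDK6 at 204, 236, 209.5, 221 and 229.9 CPM. The log2 fold changes were -0.13 (95% interval -0.28 to 0.03) and 0.12 (-0.05 to 0.29), and these signs too turned with lane as a factor, to 0.32 and -0.21. Without untreated replicate 5 they kept their signs and passed the test on p, at -0.23 ± 0.05 (adjusted p = 9.01e-04) and 0.19 ± 0.07 (adjusted p = 0.0425).

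**Figure D2:**
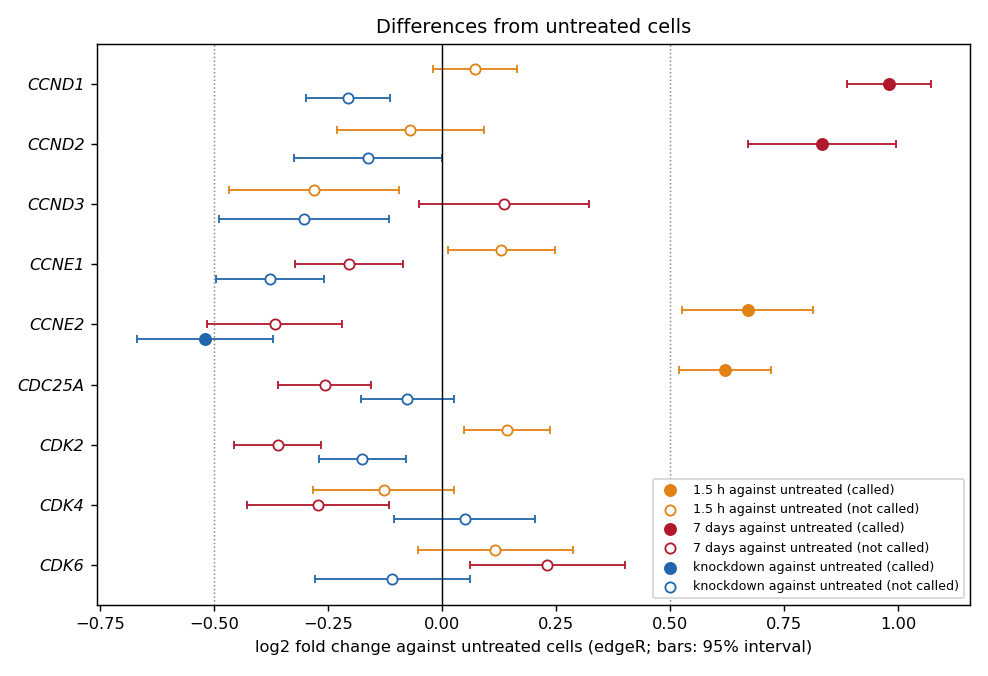
Log2 fold change of each gene against untreated cells (x axis) in 3 comparisons, with normal 95% intervals built from the standard errors. Filled points were called (adjusted p under 0.05 and beyond the dotted lines at 0.5): CCNE2 and CDC25A at 1.5 h, CCND1 and CCND2 at 7 days, and CCNE2 in the knockdown. The comparisons share the 5 untreated libraries.

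Cells with the shRNA against NFKBIA showed lower CCNE2, the 1 gene called of 9, where 12.7% of all genes were called (5.18% higher and 7.53% lower). CCNE2 was at 11.3, 12.5, 10.7, 12.6 and 10.6 CPM in the knockdown. All 5 libraries lay below all untreated libraries, with a fold of 0.698 (log2 -0.52 ± 0.08, adjusted p = 1.55e-05). This call was close to the fold threshold and was lost at -0.47 ± 0.06 (adjusted p = 3.25e-06) without untreated replicate 5, and also without knockdown replicate 3 or 5 and with 2 other scalings of library size. CCNE1 was at 59.6, 59.3, 56.9, 51.4 and 53.00 CPM, below every untreated library, with a log2 fold change of -0.38 ± 0.06 (adjusted p = 4.42e-05). CCND1 was at 297, 303, 306, 304 and 297 CPM, likewise below every untreated library but by a smaller step of -0.21 ± 0.05 (adjusted p = 0.00138). In the fit with lane neither CCNE1 (-0.38 ± 0.18, adjusted p = 0.123) nor CCND1 (-0.27 ± 0.14, adjusted p = 0.146) passed the test on p. Over all genes, 24.1% had no overlap between the libraries of these groups.

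The other members in the knockdown overlapped the untreated libraries. CCND2 was at 198, 194, 203, 194 and 211 CPM (log2 fold change -0.16, 95% interval -0.32 to -0.00094, adjusted p = 0.123) and CDC25A at 36.4, 36.5, 35.2, 31.7 and 33.1 CPM (-0.08, -0.18 to 0.03, adjusted p = 0.253). Without untreated replicate 5 CCND2 passed the test on p at -0.24 ± 0.07 (adjusted p = 0.00712), while without untreated replicate 2 it was at -0.0935. CCND3 was at 70.5, 71.9, 67.2, 64.00 and 66.04 CPM (-0.30 ± 0.10, adjusted p = 0.0148) and CDK2 at 89.9, 87.2, 86.2, 84.9 and 84.1 CPM (-0.18 ± 0.05, adjusted p = 0.00669). CDK4 was at 247, 233, 239, 224 and 223 CPM and CDK6 at 184, 190.5, 188, 196 and 183 CPM, with log2 fold changes of 0.05 (-0.11 to 0.20) and -0.11 (-0.28 to 0.06). In the fit with lane, CDK4 (0.62 ± 0.14, adjusted p = 0.00249) and CCND3 (-0.71 ± 0.20, adjusted p = 0.011) passed both thresholds, and CDK6 had -0.52 ± 0.22 (adjusted p = 0.0857). The median log2 fold change of the 9 genes was -0.18 against -0.01 over all genes tested, and 1 of them, CDK4, was above 0. The signs of CCND2, CDK2 and CDC25A turned with lane as a factor, and that of CDK4 without untreated replicate 5. The summed markers of other cell types were higher in each knockdown library than in any untreated library, which followed CLDN4 (called higher, log2 1.06 ± 0.10, adjusted p = 5.01e-08). Of the 6 such markers tested, CDH1 (-2.01 ± 0.23) and PTPRC (-1.52 ± 0.24) were called lower and 3 were not called, with a median of -0.31. Of the 7 osteosarcoma and mesenchymal markers tested, COL1A1 (log2 -1.68 ± 0.07) and ALPL (a mean of 6.84 against 26.9 CPM in untreated cells) were called lower, 5 were not called and the median was -0.18. The part of these markers in the values of the knockdown was not tested.

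Between the irradiated groups, which share no untreated library, 5 of the 9 genes were called, where 29.3% of all genes were called (16.8% higher and 12.6% lower). CCND1 and CCND2 were higher at 7 days than at 1.5 h, by log2 0.91 ± 0.05 (adjusted p = 7.92e-13) and 0.90 ± 0.08 (adjusted p = 6.38e-09). CCNE2, CDC25A and CDK2 were lower at 7 days. CCNE2 fell by 1.04 on the log2 scale (SE 0.07, adjusted p = 1.42e-10), and CDC25A fell by 0.88 (SE 0.05, adjusted p = 6.19e-12). CDK2 lay at the fold threshold with -0.50 ± 0.05 (adjusted p = 1.46e-08), and its call was lost with upper-quartile factors (-0.47), library size alone (-0.48), at least 10 counts in every library, lane as a factor (-0.49), and without 7 days replicate 5. Within lane 4, which held 2 libraries of each time, the log2 differences were 0.89 for CCND1, 0.93 for CCND2, -0.99 for CCNE2, -0.87 for CDC25A and -0.51 for CDK2. CCND3 at 7 days also lay above every library at 1.5 h (log2 0.42 ± 0.09, adjusted p = 6.98e-04) and CCNE1 below every one (-0.33 ± 0.06, adjusted p = 6.16e-05), both under the fold threshold. No overlap between these groups was seen for 61.8% of all genes. Of the 6 markers of other cell types tested, 2 were called higher at 7 days than at 1.5 h and 3 lower. Of the 7 osteosarcoma and mesenchymal ones, 1 was called higher and 1 lower. The part of these markers was not tested.

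Between the 7-day cells and the NFKBIA knockdown, CCND1 and CCND2 were called. CCND1 was higher at 7 days by log2 1.19 ± 0.05 (adjusted p = 1.33e-14) and CCND2 by 1.99-fold (adjusted p = 1.64e-09), and these were the 2 genes called of 9, where 25.7% of all genes were called (15.8% higher). Within lane 5, with 3 libraries at 7 days and 1 of the knockdown, the differences were 1.18 and 0.99. CCND3 and CDK6 were higher at 7 days by 0.44 ± 0.10 and 0.34 ± 0.09, and CDK4 was lower by -0.32 ± 0.08, each without overlap, as for 60.7% of all genes, and under the fold threshold. The same held for CCNE1, higher by 0.17 ± 0.06 (adjusted p = 0.0195), and for CDK2 (-0.19 ± 0.05, adjusted p = 0.00277) and CDC25A (-0.18 ± 0.05, adjusted p = 0.00531), lower at 7 days. With lane as a factor CCNE1 no longer passed on p, at 0.08 ± 0.11 (adjusted p = 0.582), and within lane 5 it was at 0.073. CDK2 (-0.26 ± 0.07, adjusted p = 0.00424) and CDC25A (-0.27 ± 0.09, adjusted p = 0.0257) still passed it with lane as a factor. CCNE2 did not pass the test between these groups (0.15, 95% interval 0.00118 to 0.30, adjusted p = 0.0981). Of the 6 markers of other cell types tested, 4 were called higher at 7 days than in the knockdown and 2 lower. Of the 7 osteosarcoma and mesenchymal ones, 3 were called higher and 1 lower. The part of these markers was not tested. Against the cells at 1.5 h, the knockdown had lower CCNE2 (-1.19 ± 0.08, adjusted p = 8.14e-11), CDC25A (-0.70 ± 0.05, adjusted p = 9.64e-10) and CCNE1 (-0.51 ± 0.06, adjusted p = 9.02e-07), so that 3 of 9 genes were called, all lower, where 14.1% of all genes were called (7.6% lower). The CCNE1 call stood at the fold threshold and was lost with lane as a factor (-0.44), upper-quartile factors (-0.46) and library size alone (-0.47), and also without 1.5 h replicate 1 or 4 or knockdown replicate 4 or 5.

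Ordered by group means, CCND1 ran from 7 days through 1.5 h and untreated to the knockdown, with the 1.5 h and untreated levels not separated (adjusted p = 0.304). CCND2 and CCND3 both ran from 7 days through untreated and 1.5 h to the knockdown. For CCND2 only the step below 7 days passed the test, and for CCND3 only that from untreated to 1.5 h did, on p alone. CCNE1 and CCNE2 ran from 1.5 h through untreated and 7 days to the knockdown. The last step, from 7 days to the knockdown, had an adjusted p of 0.0195 for CCNE1 and 0.0981 for CCNE2. With lane as a factor this step of CCNE1 did not pass the test either (0.08 ± 0.11, adjusted p = 0.582). CDC25A and CDK2 ran from 1.5 h through untreated and the knockdown to 7 days, with untreated and knockdown not separated for CDC25A (adjusted p = 0.253). For CDK4, from the knockdown through untreated and 1.5 h to 7 days, and for CDK6, from 7 days through 1.5 h and untreated to the knockdown, no step between neighbours passed the test. These orders are descriptions of the means in the model without lane. With lane as a factor the step between untreated cells and the knockdown turned for CCND2 (0.18), CDK2 (0.089) and CDC25A (0.095), that between untreated cells and 7 days for CCND3 (-0.33), CDK4 (0.20) and CDK6 (-0.14), and that between untreated cells and 1.5 h for CCND2 (0.24), CDK4 (0.32) and CDK6 (-0.21). Without untreated replicate 5, CDK4 in the knockdown was at -0.059 against untreated cells. The coefficient of variation of the 9 genes was 3.43% to 20.4% in untreated cells, 1.97% to 9.87% at 1.5 h, 1.02% to 7.04% at 7 days and 1.41% to 8.26% in the knockdown.

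Levels of different genes were compared per length, as CPM per kilobase (kb) of the gene length in the file. In untreated cells CCND1 and CDK4 were highest with 72.0 ± 3.99 and 71.15 ± 11.8 CPM per kb (SD, n = 5). CCND2, CCNE1 and CDK2 followed with 31.3 ± 4.41, 28.4 ± 2.68 and 25.1 ± 2.09 CPM per kb, then CDK6 with 16.6 ± 2.98 and CCND3 with 15.8 ± 3.23. CDC25A and CCNE2 were lowest with 8.85 ± 0.304 and 3.78 ± 0.488 CPM per kb. The D cyclins together went from 119.1 ± 3.43 CPM per kb in untreated cells to 215.0 ± 7.48 at 7 days, and stood at 118.5 ± 2.08 at 1.5 h and 103.1 ± 0.913 in the knockdown. Within this total, CCND1 made up 60.4% ± 2.20 in untreated cells and 66.0% ± 1.12 at 7 days, without overlap between libraries. CCND2 kept 26.3% ± 3.62 and 25.9% ± 1.35, and CCND3 went from 13.3% ± 2.77 to 8.09% ± 0.466.

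The E cyclins together were at 32.1 ± 2.74 CPM per kb in untreated cells, 37.0 ± 1.80 at 1.5 h, 27.5 ± 0.385 at 7 days and 24.5 ± 1.46 in the knockdown. CCNE2 made up 11.8% ± 1.51 of them in untreated cells and 16.2% ± 1.01 at 1.5 h, where the lowest library (15.1%) lay above the highest untreated one (13.5%). Its share was 10.6% ± 0.474 at 7 days and 10.8% ± 1.06 in the knockdown, both overlapping untreated cells. CDK6 made up 19.3% ± 5.58 of CDK4 and CDK6 together in untreated cells, with 12.5% to 27.97% over the libraries, and this span contained the means of 21.6%, 24.8% and 17.3% at 1.5 h, at 7 days and in the knockdown. Shares were described without a test.

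**Figure D3:**
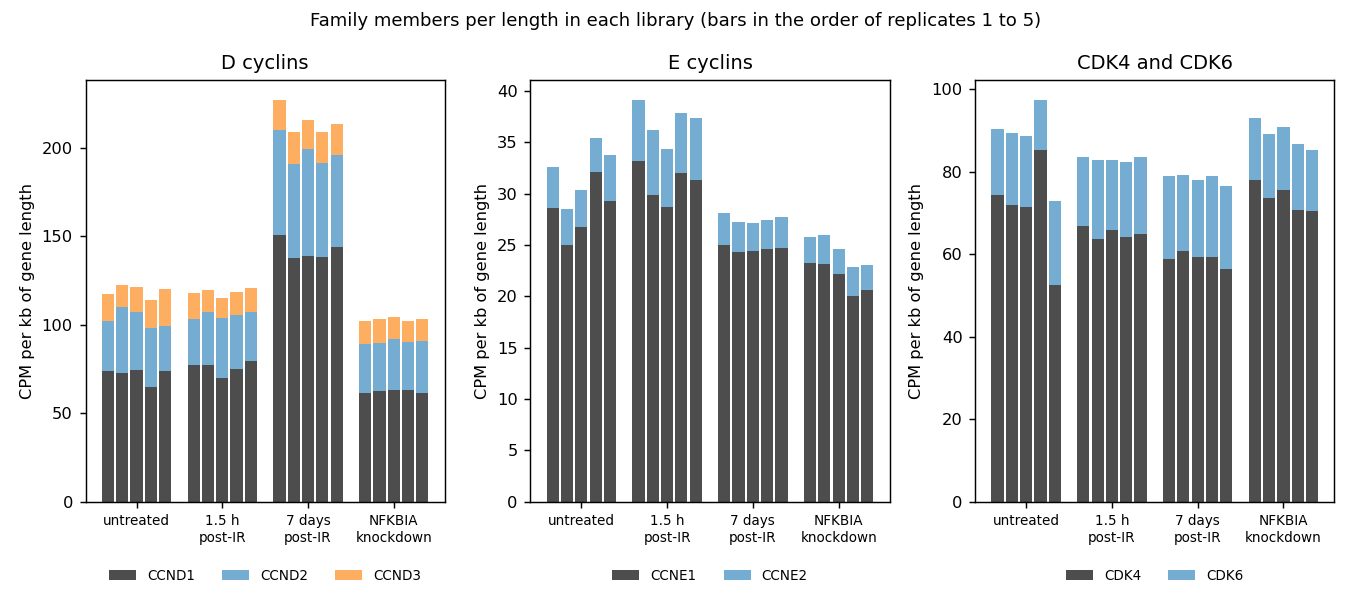
CPM per kb of gene length (y axis) in each library, stacked by gene, for the D cyclins, the E cyclins, and CDK4 with CDK6. Each bar is a library, in the order of replicates within its group. The D cyclin total stands at 215.0 on average at 7 days against 119.1 in untreated cells, and untreated replicates 4 and 5 have the tallest and the shortest bar for CDK4 and CDK6.

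Other cell cycle genes at 7 days are given by list, beside the 31.1% of all genes called. The shares of all genes called were 3.66% at 1.5 h and 12.7% in the knockdown, beside which the list counts of those comparisons should be read. Of 6 CDK inhibitor genes tested, all were called. CDKN1A, which encodes p21, rose by log2 1.86 ± 0.05 (adjusted p = 6.38e-17) and CDKN2B, which encodes p15, by 0.53 ± 0.08 (adjusted p = 3.53e-06), while CDKN2C (p18) fell by 2.04 (SE 0.07, adjusted p = 3.68e-16) and CDKN1B (p27) by 1.13 (SE 0.05, adjusted p = 1.97e-14). CDKN2D and CDKN1C fell as well, so that the list gave 2 higher and 4 lower with a median of -0.89 against 0.01 over all genes. The seventh, CDKN2A, had too few reads to be tested. At 1.5 h CDKN1A already stood higher by 1.61 ± 0.05 (adjusted p = 5.86e-15), and CDKN1B (-0.76 ± 0.05) and CDKN2C (-0.51 ± 0.06) were called lower. In the knockdown only CDKN2C was called of the 6, lower by -0.80 ± 0.06 (adjusted p = 3.30e-09).

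Of 23 S phase genes tested at 7 days, 15 were called lower and none higher, with a median log2 fold change of -0.74. They include the polymerase subunit gene POLE2 (-1.27 ± 0.06), thymidine kinase TK1 (-1.15 ± 0.11) and the replicative helicase genes MCM3 (-0.76 ± 0.06) and MCM6 (-1.09 ± 0.07). At 1.5 h none of the 23 was called (median 0.06, 18 above 0), and in the knockdown TK1 alone was called lower (-0.82 ± 0.11), although 22 of 23 lay below 0 with a median of -0.35. Among 13 genes of the RB and E2F family, E2F2 (-1.49 ± 0.07), E2F8 (-1.22 ± 0.12), E2F1 (-0.93 ± 0.08) and the RB relative RBL1 (-0.71 ± 0.08) were called lower at 7 days, with a median of -0.08 for the list, and RB1 itself had -0.08 ± 0.09 (adjusted p = 0.418). At 1.5 h no member of the RB and E2F family was called (median 0.16). In the knockdown E2F2 (-0.60) and E2F8 (-0.58) were called lower and E2F5 higher (0.55).

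Of 18 genes for CDK activity and cyclin turnover, 1 rose and 6 fell at 7 days with a median of -0.16. FBXW7, which encodes the ubiquitin ligase subunit that recognises cyclin E, rose by 0.92 ± 0.06 (adjusted p = 1.70e-11) and had risen by 1.01 ± 0.06 (adjusted p = 8.24e-11) at 1.5 h, as the single call of the list at that time. SKP2 (-0.90 ± 0.06), the subunit that recognises p27, and its cofactor CKS1B (-0.78 ± 0.15) fell at 7 days, as did the CDK1 inhibitory kinase gene PKMYT1 (-0.85 ± 0.07). PKMYT1 was also the single call in the knockdown (-0.65 ± 0.07). Of 8 G2 and mitotic genes tested, 7 fell at 7 days with a median of -1.11, among them CCNA2 (-1.18 ± 0.05), CCNB2 (-1.16 ± 0.07) and the CDC25 relatives CDC25C (-1.19 ± 0.08) and CDC25B (-1.05 ± 0.05). CCNF, which encodes a cyclin that acts in a ubiquitin ligase, was called lower in all 3 comparisons (-0.87 ± 0.05 at 1.5 h, -1.17 ± 0.05 at 7 days and -0.60 ± 0.05 in the knockdown), which share their untreated libraries. CDC25B was also called lower in the knockdown (-0.71 ± 0.05). Of 27 other cyclins and CDKs, 2 rose (CCNG1 by 0.89 ± 0.06 and CDK20 by 0.76 ± 0.07) and 4 fell at 7 days, and 13 of 27 lay above 0. Among the falls, those of CDK15 and CDK14 were larger in size than the rise of CCNG1. At 1.5 h CCNL1 (0.65) and CCNT1 (0.51) of these were called higher, and in the knockdown CDK15 (-0.96), CDK14 (-0.66) and CCNO (-0.56) were called lower.

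**Figure D4:**
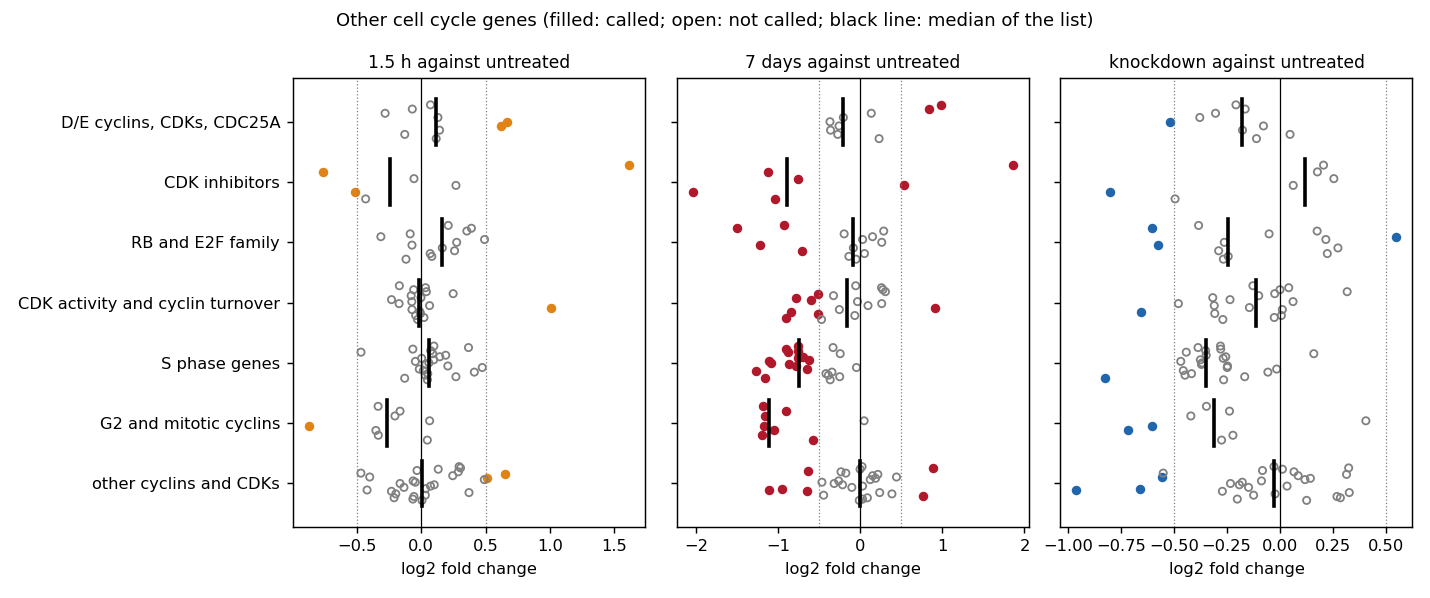
Log2 fold change (x axis) of the 9 genes and of 6 lists of other cell cycle genes in 3 comparisons with untreated cells; filled points were called, open points were not, and black lines mark list medians. At 7 days the medians of the S phase genes (-0.74) and of the G2 and mitotic cyclins (-1.11) lie well below 0, while CCND1 and CCND2 stand apart from the other members. The x axes differ in range.

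The genes most like each member over the 20 libraries were taken by Pearson's r of log2 CPM, as a description of libraries that share groups and lanes. CCND1 was most like ESM1 (r = 0.993) and CDH13 (r = 0.991), with 0.33 and 0.665 once the group means were removed. CCND2 was most like RGMB (r = 0.975) and SRPX (r = 0.974), with 0.774 and 0.678 without the group means. CCND1 and CCND2 had r = 0.926 with each other, but -0.348 once the group means were removed. CCNE2 was most like MOB1A (r = 0.977, and 0.774 without the group means) and CDC25A like CRY1 (r = 0.957, and 0.644), with r = 0.891 between CCNE2 and CDC25A and -0.0254 without the group means. CCNE1 was most like SFN and SC5D (both r = 0.951), with 0.867 and 0.667 without the group means, and CDK2 like CENPN (r = 0.977, and 0.939 without them). For CCND3 (THY1, r = 0.953), CDK4 (VPS28, r = 0.983) and CDK6 (TGOLN2, r = 0.966) r was 0.942, 0.972 and 0.967 without the group means.

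Some of these genes share exons with a neighbour on the other strand in the GENCODE 29 annotation (GRCh38), and the strand setting of the counting is not given in the sources used here. CCNE2 shared 1629 exon bases with INTS8, which had a log2 fold change of -0.0025 at 1.5 h and 0.15 in the knockdown. CDK4 shared 1369 with TSPAN31 (0.21 at 7 days and 0.35 in the knockdown), and CCND1 shared 497 with LTO1, listed as ORAOV1 (0.25 at 7 days). CDK2 shared 89 with PMEL, which rose at 7 days (0.95) to a mean of only 1.5 CPM. It also shared 565 with the antisense gene AC025162.1, which was not analysed here. CCND2 shared 989 with AC008012.1 on its own strand, which was not analysed here. The remaining overlaps, with noncoding genes, covered at most 126 bases. The part of these neighbours in the counts was not tested.

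The differences from untreated cells were also computed without untreated replicate 5 and with lane as a factor. That replicate alone ties lane 2 to the other lanes in the factor fit. The calls of CCND1 and CCND2 at 7 days held in both, with log2 fold changes of 0.97 ± 0.05 and 0.75 ± 0.07 without the replicate and 0.92 ± 0.11 and 1.19 ± 0.18 with lane as a factor. At 1.5 h CDC25A was at 0.60 ± 0.05 and 0.68 ± 0.10 and CCNE2 at 0.73 ± 0.06 and 0.40 ± 0.11. In CCND3 the replicate had the highest untreated value, and with lane as a factor its log2 fold change was negative in all 3 comparisons. The signs that turned with lane as a factor were those of CCND2, CDK4 and CDK6 at 1.5 h, CCND3, CDK4 and CDK6 at 7 days, and CCND2, CDK2 and CDC25A in the knockdown. CDK4 in the knockdown turned without untreated replicate 5.

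**Figure D5:**
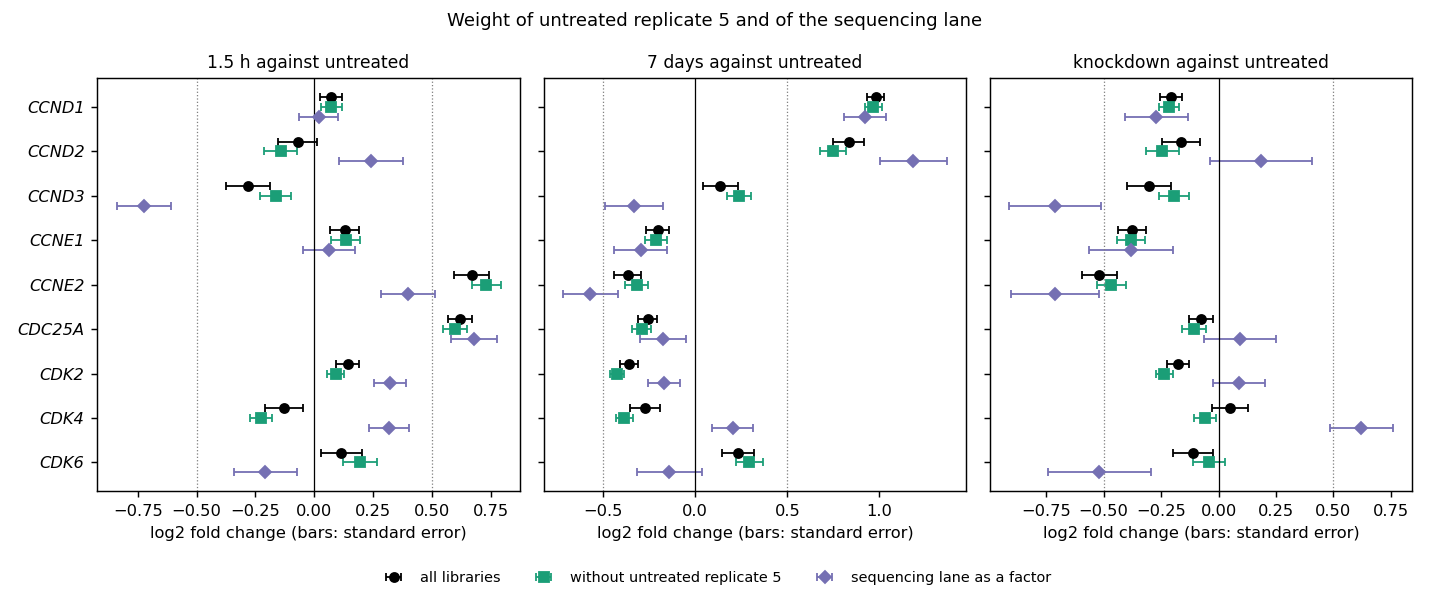
Log2 fold change against untreated cells (x axis, bars show the standard error) from all libraries, without untreated replicate 5, and with lane as a factor. CCND1 and CCND2 at 7 days and CDC25A at 1.5 h stay beyond 0.5 in all 3 fits, and all genes but CCND1, CCNE1 and CCNE2 move across 0 in at least 1 comparison each.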

How the data were processed

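The authors deposited whole-number read counts per gene, which were used without change as raw counts. According to the methods, stranded mRNA libraries from 5 replicates per group were sequenced on a HiSeq 2000. The submitters' processing notes name bcl2fastq, Trimmomatic, STAR 2.4.2a and the build hg19. The counting program, its annotation and its strand setting are not given in the sources used here, so counts of overlapping genes may include each other's reads. The 20 libraries held 22535659 to 40390961 counted reads, and none was left out. Intervals cover the spread between libraries. The study calls the replicates biological, and the labels do not say how the cultures were kept apart, so part of this spread may be technical.

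In R 4.3.3 with edgeR 4.0.16, genes were filtered by filterByExpr (minimum count 10), which left 14992 of 20314, and scaled by TMM. A quasi-likelihood model of the 4 groups, without covariates, was fitted on every library in place of the study's analysis of variance. Benjamini-Hochberg adjustment of p covered all genes tested. Calls needed an adjusted p under 0.05 and a log2 fold change over 0.5 in size. Standard errors came from the F statistic. Log2 CPM used a prior count of 2. An exact permutation test with 5 against 5 libraries cannot give a two-sided p below 0.00794. The members, gene lists and tests were chosen with earlier results of these data known. The named genes were all members, genes picked from each list, and the most correlated genes. The picks were not always the largest changes of a list. MCM5, for example, fell further than MCM3 at 7 days.

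The model was tested on simulated data with known changes. Alternatives were RLE factors, upper-quartile factors, library size alone, DESeq2 1.42.0, no filter, a minimum of 10 counts per library, fits restricted to the compared groups, a replicate block, lane as a factor, single lanes, and leaving out each library. Same-numbered replicates were checked for pairing by the correlation of their deviations from group means (-0.254 to 0.123), and were not treated as pairs. Promoters came from RefSeq (GRCh38.p14), and no coordinates of the files were used. PECAM1 and 1 S phase gene were not analysed here. Figures were drawn with matplotlib 3.10.9.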

Additional observations from a re-analysis of the deposited data

Results flagged for a closer look

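CCND1 in untreated replicate 4 was at 313.6 CPM, well below the 352.7 to 360.5 CPM of the other 4 untreated libraries. Its gap to the nearest library was 0.834 of the group's whole range, above Dixon's critical value of 0.71 for 5 libraries. It was the single value singled out among 36 groups of 5 (9 genes in 4 groups). Chance alone would single out about 1 group in 20. The same library had the highest CDK4 and the lowest CDK6 of its group. Leaving out each library in turn kept the call of CCND1 at 7 days.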

How the results depend on the processing

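At 7 days CCND1 and CCND2 were called under every alternative computed, joined by CCNE2 (lower) with lane as a factor, which gave 3 members called. At 1.5 h CDC25A was called under every alternative, and CCNE2 under all but lane as a factor and within lane 3, where CCND3 was called lower in its place. Both of these rest on untreated replicate 5, which is the whole untreated arm within lane 3. Of 1053 log2 fold changes of members under alternatives, 1012 kept their sign and their side of the thresholds. The call of CCNE2 in the knockdown did not: the count of members called was 0 with upper-quartile factors and with library size alone, 3 with lane as a factor (1 higher and 2 lower), and 0 to 1 with 1 library left out. The CCNE2 log2 fold change ranged from -0.58 to -0.47 when 1 library was left out. The 3 members called with lane as a factor were CCNE2 and CCND3 (lower) and CDK4 (higher). Leaving out 1 library gave 4 to 5 members called between 7 days and 1.5 h and 2 to 3 between the knockdown and 1.5 h.

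Signs turned in 17 values, 13 of them with lane as a factor or within lane 3, and the cause was not tested. With lane as a factor these were, at 1.5 h, CCND2 (0.24), CDK4 (0.32) and CDK6 (-0.21), at 7 days CCND3 (-0.33), CDK4 (0.20) and CDK6 (-0.14), in the knockdown CCND2 (0.18), CDK2 (0.089) and CDC25A (0.095), and between the knockdown and 1.5 h CCND3 (0.012). Within lane 3 they were CCND2 (0.23), CDK4 (0.31) and CDK6 (-0.21). CCND3 between the knockdown and 1.5 h also turned with upper-quartile factors (0.022) and library size alone (0.013), and ranged from -0.069 to 0.015 with 1 library left out. CDK4 in the knockdown ranged from -0.059 without untreated replicate 5 to 0.10. Over all genes, 548 were called at 1.5 h, but 3820 with lane as a factor (1781 higher and 2039 lower) and 3700 within lane 3 (1668 and 2032). In the knockdown 1906 became 4088 with lane as a factor (1994 and 2094), and between the knockdown and 1.5 h 2121 became 1186 (527 and 659).

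With a replicate block, 2, 2 and 1 members were called at 1.5 h, at 7 days and in the knockdown, and no call or sign of a member changed. The block moved the genes called from 548 to 496, from 4657 to 4628 and from 1906 to 1849. In any pair of groups, at most 2 of 5 libraries correlated best with their own number, and in some pairs none did. Alternatives within 1 lane could be computed in 3 of the 6 comparisons. Each member had at least 299 reads in every library.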
